A study of Raphidocelis subcapitata with 493 samples.

Results

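The fluorotelomer sulfonate 8:2FTS was given to the unicellular green alga Raphidocelis subcapitata at 7 nominal concentrations, 0.1, 0.3, 1, 3, 10, 32 and 100 µM. All libraries whose label names this compound were taken, which gave 21 of the 493 libraries of the series, 3 at each concentration. They were set against the 3 DMSO libraries that the labels pair with the same exposure. Treated and control wells all held 0.33% solvent and were harvested after 24 h. The controls are labelled DMSO, whereas the series used DMSO or methanol depending on the compound, and the labels do not name the solvent of the 8:2FTS wells. If it was not DMSO, solvent and compound cannot be told apart in the comparisons with DMSO, which include the point of departure. The alga was grown at 24 °C in constant light and was in exponential growth when exposed. The labels name no strain or genotype. Per the protocol, 3 replicate plates went to RNA and RNA came from pooled homogenates. Nothing in the labels says that libraries of a group came from separately grown cultures, so the p-values cover only library-to-library spread, part of which may be technical. A further concentration that the protocol lists, 0.03 µM, is not analysed here. No gene in the files marks the compound, so the values could not check the label of a library.

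8:2FTS consists of a perfluorinated carbon chain joined through a short hydrocarbon spacer to a sulfonate head group. Fluorotelomer sulfonates are surfactants known from fire-fighting foams, and the perfluorinated part resists degradation. Green algae such as R. subcapitata are standard test organisms because their growth responds to dissolved chemicals within days. The study's question, per its title, is the point of departure of each compound, meaning the concentration at which expression starts to move. The expression tables pair no gene name with their identifiers, so genes are described below by group, by level and by their course over concentration, and at most 2 that rose and 2 that fell are given by identifier.

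Expression was read with a 3' tag kit that primes at the polyadenylated end, so long transcripts do not gain counts from their length. Total counts of the 24 libraries lay between 941036 and 1340256, and between 10812 and 11176 of the 13429 listed genes had at least a single count. A gene's level is given as CPM, its count scaled by the total of its library. CPM values are shares, so they do not show whether a culture held fewer cells or less RNA per cell. DMSO replicate 1 stood apart: its root-mean-square deviation from its group's mean over genes was 0.353 on the log2 scale, against 0.299 and 0.307 in DMSO replicates 2 and 3 and 0.262 to 0.303 in the treated libraries. DMSO replicate 1 also had the lowest total count of the 24 libraries, 941036. Results are therefore also given without it where that matters. Leaving it out keeps number 1 in the treated groups, so the groups then no longer hold the same replicate numbers. Number 1 also differed in the treated groups. On the first principal component, the axis of largest spread among libraries, replicate 1 had the lowest score in every group. The scores of replicates 1, 2 and 3 were -6.87, 13.3 and 19.4 in DMSO and -4.10, 14.2 and 12.5 at 0.1 µM.

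The response to 8:2FTS was small at low concentrations and broader at the top. A gene was called where the edgeR quasi-likelihood test gave a Benjamini-Hochberg adjusted p under 0.05, and 9241 genes were tested. At 0.1 µM 5 genes rose and none fell, 0.0541% of the genes tested. At 0.3 µM 19 rose and 13 fell (0.346%), at 1 µM 14 rose and 5 fell (0.206%), and at 3 µM 22 rose and 16 fell (0.411%). At 10 µM 36 rose and 32 fell (0.736%). At 32 µM 99 genes rose and 132 fell (2.5%), and at 100 µM 96 rose and 154 fell (2.71%). An unadjusted p under 0.05 was found for 635 genes at 0.1 µM and for 1348 at 100 µM. All 7 comparisons share the same 3 DMSO libraries. With the replicate number as a block, more genes were called at every concentration, 207 at 10 µM and 460 at 100 µM.

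**Figure D1:**
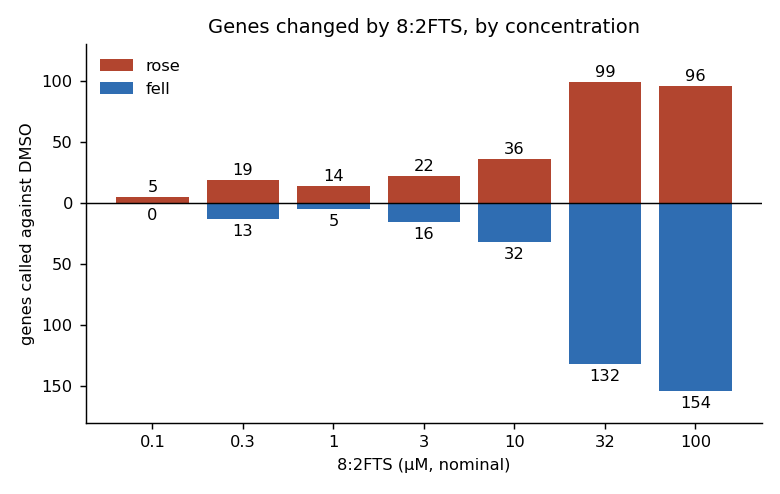
Number of genes called against the 3 DMSO libraries (edgeR, adjusted p under 0.05) at each nominal concentration of 8:2FTS in µM, with rises drawn above the line and falls below it. The 231 and 250 calls at 32 and 100 µM stand well above the 68 at 10 µM.

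Single libraries weigh on these counts, most of all at 3 µM and below. The 0.1 µM count by edgeR was 2 and 8 without DMSO replicates 2 and 3. It was 0 without DMSO replicate 1 and without 8:2FTS replicate 3, with 740 and 541 genes at an unadjusted p under 0.05. The 0.3 µM count was 20 and 16 without 8:2FTS replicates 1 and 2, and 52 and 17 without DMSO replicates 1 and 3. The 1 µM count was 10, 9 and 12 without 8:2FTS replicates 1, 2 and 3, and 36 and 12 without DMSO replicates 1 and 2. The 3 µM count was 9 without 8:2FTS replicate 3, and 100, 21 and 10 without DMSO replicates 1, 2 and 3. It was 0 by edgeR without 8:2FTS replicate 2, where 756 genes had an unadjusted p under 0.05. At 10 µM there were 44 and 41 calls without 8:2FTS replicates 1 and 2, and 42 without DMSO replicate 3. At 32 µM there were 143 and 66 without 8:2FTS replicates 1 and 2, and 138 without DMSO replicate 3. At 100 µM there were 140 without 8:2FTS replicate 2, and 276, 159 and 114 without DMSO replicates 1, 2 and 3. Which direction had more genes also rested on single libraries. Without DMSO replicate 3, rises outnumbered falls at 32 µM (80 and 58) and at 100 µM (59 and 55), and without 8:2FTS replicate 2 they did so at 32 µM (38 and 28). Without DMSO replicate 1, falls outnumbered rises at 0.3 µM (17 rises and 35 falls), 1 µM (9 and 27), 3 µM (32 and 68) and 10 µM (17 and 30). Without 8:2FTS replicate 3 the 0.3 µM split was 13 rises and 18 falls. DESeq2, run on all libraries only, called 7 genes at 0.1 µM and 95 at 3 µM, where 35 rose and 60 fell. With DESeq2 falls also outnumbered rises at 0.3 µM (24 rises and 31 falls) and 10 µM (45 and 52), and 19 rose and 19 fell at 1 µM. In edgeR the 3 µM split was 22 rises and 23 falls with RLE scaling factors and 24 and 15 with library totals.

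Changes were modest in size. The median size of a called change at 100 µM was 0.63 on the log2 scale, and 38 of the 250 genes changed at least 2-fold, 21 that rose and 17 that fell. From 0.1 to 32 µM, 1, 9, 7, 11, 14 and 31 of the called genes changed at least 2-fold. The median over all tested genes was 0.00, and the median standard error of a log2 fold change was 0.25. In 236 of the 250 called genes the 3 libraries at 100 µM did not overlap the 3 DMSO libraries in CPM, compared with 1582 of all 9241 tested genes, or 17.1%. The called genes had high levels in DMSO. The 96 that rose had a median DMSO level of 130 CPM and the 154 that fell one of 266 CPM, against 39.1 CPM for all tested genes. Only 1 of the 154 falls and 5 of the 96 rises had a DMSO level under 10 CPM, compared with 1045 of all tested genes. A call is easier to reach at higher counts, and these genes were chosen using the same DMSO values. Their levels are therefore a description and were not tested. Together, the genes that rose held 4.64% ± 0.10 of all counts at 100 µM and 3.13% ± 0.15 in DMSO (SD, n = 3 each). Those that fell held 3.93% ± 0.16 at 100 µM and 5.70% ± 0.28 in DMSO (SD, n = 3 each). These shares describe genes chosen by the same comparison and carry no test.

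The level of Rsub_02329 was the most raised among genes that met the rule for naming. That rule required a call at 100 µM and no overlap there with DMSO, so for the named genes these are not separate results. Rsub_02329 stood at 165, 154 and 131 CPM in the 3 libraries at 100 µM, against 75.4, 35.1 and 30.8 CPM in the 3 DMSO libraries. DMSO replicate 1 was the high one of the controls. Replicate 1 also held the highest level of this gene at every concentration of 8:2FTS except 1 µM. The log2 fold change was 1.66 with an SE of 0.25 (edgeR, adjusted p = 8.42e-05). Without DMSO replicate 1 it was 2.15, and with number 2 left out of every group it was 1.47 and lost its call (adjusted p = 0.129). From 0.1 to 32 µM the gene's mean level was 35.0, 54.5, 42.6, 60.9, 76.1 and 101 CPM, and of these concentrations only 32 µM was called (log2 fold change 1.11, adjusted p = 0.0150). Against 0.1 µM in place of DMSO, its level at 100 µM was higher by 2.07 on the log2 scale (SE 0.25, edgeR adjusted p = 1.61e-06).

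Rsub_07655 had DMSO libraries that lay close together. Its level was 99.9, 104 and 91.1 CPM at 100 µM, against 38.3, 31.3 and 32.8 CPM in DMSO, which is 1.50 higher on the log2 scale with an SE of 0.19 (edgeR, adjusted p = 1.87e-07). Its mean was 38.7, 42.9, 46.2, 65.6, 79.0 and 107 CPM from 0.1 to 32 µM. It was called from 3 µM upward, where the log2 fold change was 0.93 (adjusted p = 0.0139). It reached 1.20 at 10 µM (adjusted p = 0.000397) and 1.64 at 32 µM (adjusted p = 5.63e-08). Its mean at 32 µM, 107 ± 13.0 CPM, and that at 100 µM, 98.2 ± 6.5 CPM (SD, n = 3 each), came from libraries that overlapped, 91.9 to 116 CPM at 32 µM and 91.1 to 104 CPM at 100 µM. Under every alternative run, its log2 fold change at 100 µM stayed between 1.41 and 1.58 and was called.

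Rsub_09629 had 22.1, 28.4 and 27.5 CPM at 100 µM, against 43.6, 75.8 and 69.5 CPM in DMSO. DMSO replicate 1 was the low control, and by the rule for naming no treated library at 100 µM reached it. The log2 fold change was -1.31 with an SE of 0.29 (edgeR, adjusted p = 0.00456). The call was lost without DMSO replicate 2, where the change was -1.14 (adjusted p = 0.0526), and with number 2 or 3 left out of every group (adjusted p = 0.181 and 0.0991). At 10 µM its libraries held 11.8, 30.1 and 31.4 CPM, the lowest in replicate 1. Their mean was 24.5 ± 11.0 CPM (SD, n = 3), a log2 fold change of -1.38 (edgeR, adjusted p = 0.00979). At 32 µM the mean was higher, 32.1 ± 1.9 CPM (SD, n = 3), a change of -0.98 (edgeR, adjusted p = 0.0484). Against 0.1 µM the change at 100 µM was -0.95 and was not called (adjusted p = 0.0896).

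Rsub_10397 had 21.3, 27.5 and 22.3 CPM at 100 µM, against 43.6, 68.2 and 56.6 CPM in DMSO, without overlap as the rule required. Its log2 fold change was -1.28 with an SE of 0.26 (edgeR, adjusted p = 0.00106), and with number 2 or 3 left out of every group it was not called (adjusted p = 0.0795 and 0.0570). It was called at 10 µM with -1.06 (adjusted p = 0.0213) and at 32 µM with -1.27 (adjusted p = 0.00158). Against 0.1 µM its change at 100 µM was -0.68 and was not called (adjusted p = 0.219). In 0.1 µM replicate 1 this gene stood at 25.4 CPM and Rsub_09629 at 26.9 CPM, close to their levels at 100 µM. The other libraries at 0.1 µM had 48.4 and 38.9 CPM of Rsub_10397 and 63.7 and 57.5 CPM of Rsub_09629. Replicate 1 was the lowest library of both genes in DMSO and at 0.1, 0.3, 10 and 100 µM. At 32 µM it was the lowest for Rsub_10397 only, and at 1 and 3 µM for neither.

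**Figure D2:**
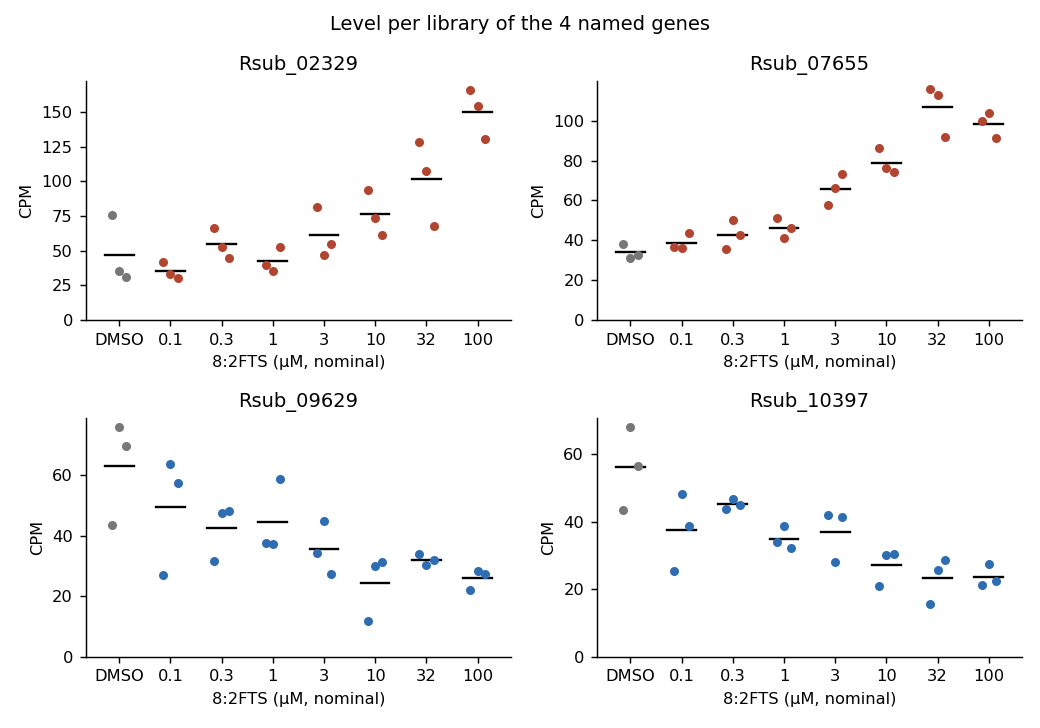
CPM of Rsub_02329, Rsub_07655, Rsub_09629 and Rsub_10397 in each of the 24 libraries, by nominal concentration of 8:2FTS in µM, with grey points for DMSO, coloured points for treated libraries and a bar at each group's mean. The first 2 genes end at 150 and 98.2 CPM at 100 µM and the other 2 at 26.0 and 23.7 CPM.

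A test over the ranked concentrations asked which genes moved steadily. With DMSO as the lowest rank, 202 genes rose and 292 fell, 5.35% of those tested (edgeR). Without DMSO replicate 1 the count was 495 in place of 494, and 413 genes were in both lists. With a replicate number left out of every group the count was 145 to 467. The 21 treated libraries alone gave 149 rising and 190 falling genes, 3.68% of 9216 tested. Rsub_07655 rose by 0.26 on the log2 scale per step of concentration within the treated libraries (SE 0.03, edgeR adjusted p = 7.81e-13), and Rsub_02329 rose by 0.33 (SE 0.03, adjusted p = 6.08e-11). Rsub_09629 fell by 0.16 per step (SE 0.04, adjusted p = 0.00394) and Rsub_10397 fell by 0.15 (SE 0.04, adjusted p = 0.00405). These genes were named partly for being called in this trend, so their adjusted p-values are a description.

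The lists from the treated libraries were chosen without the DMSO libraries. At 0.1 µM the 149 rising genes had a median log2 fold change against DMSO of -0.09, and 46 of them lay above the control. From 1 to 100 µM their median was 0.01, 0.13, 0.23, 0.39 and 0.49, and at 100 µM all 149 lay above DMSO. The 190 falling genes had a median of 0.05 at 0.1 µM, with 81 below DMSO. From 1 to 100 µM their median was -0.07, -0.21, -0.26, -0.39 and -0.52, and at 100 µM 187 lay below DMSO. The medians of both lists were within 0.1 of the control up to 1 µM, while the median over all tested genes stayed at 0.00 at each concentration. The lists were chosen for their slope over all 7 concentrations, so their values at low and at high concentrations alike were shaped by that choice and are a description.

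**Figure D3:**
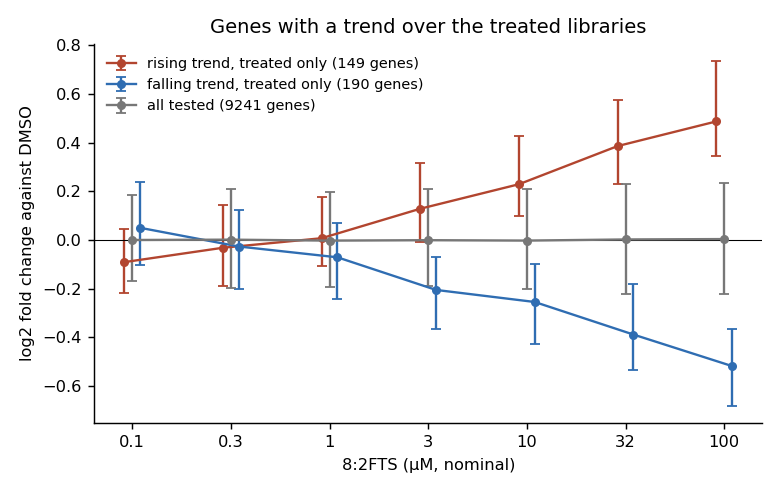
Median log2 fold change against DMSO (points, with bars from the lower to the upper quartile over genes) of the genes with a rising or a falling trend in the 21 treated libraries and of all tested genes, by nominal concentration of 8:2FTS in µM. The medians of the rising genes are -0.09 at 0.1 µM and 0.49 at 100 µM, and those of the falling genes 0.05 and -0.52.

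Directly between treated groups, 163 genes differed at 100 µM against 0.1 µM, 71 higher at 100 µM and 92 lower, or 1.76% of those tested (edgeR). Of these, 26 differed at least 2-fold. Between 100 and 32 µM, a contrast added after the other results were seen, 4 genes differed, 2 higher at 100 µM and 2 lower (0.0433%; with library totals 2, both higher), and 593 had an unadjusted p under 0.05. From 3 to 100 µM the median log2 fold change against DMSO of the 154 genes that fell at 100 µM was -0.35, -0.38, -0.46 and -0.60. For the 96 that rose it was 0.35, 0.46, 0.56 and 0.70. These genes were chosen at 100 µM, so their size there is a description.

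PFTDoDA, another compound of the series, was tested in the same exposure with the same DMSO libraries, so the compounds were contrasted directly at matched concentrations. At 10 µM 25 genes were higher with 8:2FTS and 70 lower (edgeR, 0.989% of 9605 tested). At 32 µM 135 were higher and 225 lower (3.75%). At 100 µM 736 were higher and 867 lower (16.7%), and 567 of these 1603 differed at least 2-fold. The differences at 100 µM ran from 5.71 higher to -7.83 lower with 8:2FTS on the log2 scale. The named genes were chosen on their fold at 100 µM and their trend in these 8:2FTS libraries, so the differences given for them are a description. Rsub_07655 was called as different at all 3 concentrations. It averaged 79.0 ± 6.6 CPM with 8:2FTS and 33.0 ± 11.4 CPM with PFTDoDA at 10 µM (SD, n = 3 each), a log2 difference of 1.27 with an SE of 0.23 (edgeR, adjusted p = 0.000178). At 32 µM the values were 107 ± 13.0 and 25.9 ± 5.9 CPM, a difference of 2.07 (adjusted p = 7.09e-11). At 100 µM they were 98.2 ± 6.5 and 33.9 ± 18.0 CPM, a difference of 1.56 (adjusted p = 8.64e-08). The mean of this gene in the shared DMSO libraries was 34.1 ± 3.7 CPM (SD, n = 3).

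Rsub_02329 stood the other way round. Its level at 100 µM was 150 ± 17.7 CPM with 8:2FTS and 427 ± 40.9 CPM with PFTDoDA (SD, n = 3 each), a log2 difference of -1.53 with an SE of 0.17 (edgeR, adjusted p = 1.42e-10). At 32 µM the difference was -0.96 (adjusted p = 0.000227) and at 10 µM -0.37, not called (adjusted p = 0.560). Neither of the genes that fell was called as different between the compounds. At 100 µM Rsub_09629 averaged 26.0 ± 3.4 CPM with 8:2FTS and 33.9 ± 0.7 CPM with PFTDoDA, and Rsub_10397 averaged 23.7 ± 3.3 and 19.1 ± 4.4 CPM (SD, n = 3 each). The median half-width of the unadjusted 95% interval of a difference at 100 µM was 0.49 on the log2 scale, so smaller differences in uncalled genes remain possible.

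6:2FTS and 4:2FTS have the same head group and spacer as 8:2FTS and a shorter perfluorinated chain. Both were tested in another exposure and share its 3 DMSO libraries, so the difference between each compound's change from its own DMSO was tested at matched concentrations. Against 6:2FTS, 6 genes had a higher and 3 a lower change under 8:2FTS at 10 µM (edgeR, 0.0952% of 9455 tested), 34 and 38 at 32 µM (0.762%), and 37 and 47 at 100 µM (0.888%). The split at 10 and 32 µM moved with the scaling: with library totals 41.7% and 34.9% of the called genes were higher, in place of 66.7% and 47.2%. Without DMSO replicate 1 of the 8:2FTS exposure the counts were 38 at 32 µM and 144 at 100 µM. Against 4:2FTS the edgeR count at 10 µM was 0 of 9473 (0%), with 790 genes at an unadjusted p under 0.05, and no other tool was run on this contrast. At 32 µM 3 genes had a higher and 1 a lower change under 8:2FTS (0.0422%), and library totals left 1 gene, lower with 8:2FTS. At 100 µM 9 had a higher and 8 a lower change (0.179%). The median half-width of the unadjusted 95% interval was 0.73 on the log2 scale for both compounds at 100 µM, which exceeds the median called change of 0.63, so a missed threshold does not show that a gene responded alike. A higher count against 6:2FTS than against 4:2FTS is itself not tested.

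Of the 4 named genes, Rsub_07655 and Rsub_10397 had called differences between these sulfonates. The named genes were chosen on the same 8:2FTS and DMSO libraries, which favours a difference, so these p-values are a description. Rsub_07655 rose with 6:2FTS at 100 µM, with 66.5 ± 13.3 CPM and 35.5 ± 9.6 CPM in DMSO (SD, n = 3 each), higher by 0.90 on the log2 scale with an SE of 0.24 (edgeR, adjusted p = 0.0359). With 4:2FTS it had 36.4 ± 4.6 CPM, a change of 0.05 that was not called (adjusted p = 0.975). Its change under 8:2FTS exceeded that under 4:2FTS by 1.66 at 32 µM (adjusted p = 0.0306) and by 1.47 at 100 µM (SE 0.34, adjusted p = 0.0416). It exceeded that under 6:2FTS by 1.14 at 32 µM (adjusted p = 0.0492), whereas the difference of 0.61 at 100 µM was not called (adjusted p = 0.355). Rsub_10397, which fell with 8:2FTS, had 54.3 ± 5.3 CPM with 6:2FTS and 34.4 ± 4.3 CPM in DMSO (SD, n = 3 each), a change of 0.65 that was not called (adjusted p = 0.157). The difference of its changes was -1.91 against 6:2FTS (SE 0.35, adjusted p = 0.00183) and -1.74 against 4:2FTS (SE 0.36, adjusted p = 0.0214) at 100 µM. For Rsub_02329 and Rsub_09629 no difference from 6:2FTS or 4:2FTS was called at 10, 32 or 100 µM.

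The 250 genes called at 100 µM were next followed in compounds from other exposures, each in its own fit against its own DMSO. These were the shorter fluorotelomer sulfonates, the perfluorinated sulfonates PFOS and PFHxS, of which PFOS has the longer chain, and FHxSA, the sulfonamide of the chain of PFHxS. As a share of the 154 falls, the overlap was largest with FHxSA, which also had the most called falls of the compounds followed. There 95 of the 154 genes, or 61.7%, also fell, where 8.3% of all tested genes fell. They were 12.1% of the 787 genes that fell with FHxSA. Of the 96 rises, 36 also rose with FHxSA, 37.5% of this list and 5.35% of the 673 genes that rose there, where 7.1% of tested genes rose. The median change of the 154 genes was -0.60 with 8:2FTS and -0.48 with FHxSA, where 138 lay below the control. The shares of all tested genes, here and for the compounds below, are not matched for level. In the DMSO libraries of 8:2FTS the rises and falls had medians of 130 and 266 CPM, against 39.1 CPM for all tested genes. A call is easier to reach at higher counts, so a background at a like level could be higher, and none was computed.

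With PFOS the rises and the falls parted. It also raised 26 of the 96 genes, 27.1% of this list and 10.7% of the 242 genes that PFOS raised, where it raised 2.6% of tested genes. Of the 154 genes that fell with 8:2FTS, however, 7 fell with PFOS and 9 rose, where 1.99% of tested genes fell with PFOS. Those 7 genes are 4.55% of the 8:2FTS falls and 3.78% of the 185 PFOS falls. The median change of the 154 genes was 0.09 with PFOS, with 56 of 153 tested there below the control. PFHxS raised 16 of the 96 (16.7%, background 2.65%) and lowered 12 of the 154 (7.79%, background 1.75%), while 5 of the 154 rose. These are 6.4% of the 250 genes PFHxS raised and 7.27% of the 165 it lowered.

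With 6:2FTS, 20 of the 96 genes rose (20.8%, background 0.906%) and 9 of the 154 fell (5.84%, background 1.04%). They are 24.1% of the 83 genes that rose with 6:2FTS and 9.47% of the 95 that fell. With 4:2FTS, 13 of the 96 rose (13.5%, background 0.358%) and 4 of the 154 fell (2.60%, background 0.444%). They are 39.4% of its 33 rises and 9.76% of its 41 falls. The median change of the 96 genes was 0.70 with 8:2FTS, 0.25 with 6:2FTS and 0.23 with 4:2FTS. For the 154 falls it was -0.60 with 8:2FTS, -0.12 with 6:2FTS and -0.23 with 4:2FTS. The genes called as rising with 6:2FTS had a median of 0.16 with 8:2FTS and of 0.75 with 6:2FTS itself. Those that rose with 4:2FTS had 0.39 with 8:2FTS and 0.79 with 4:2FTS itself. The genes that fell with another compound had medians with 8:2FTS of -0.39 for the falls of 4:2FTS, -0.24 for FHxSA, -0.19 for 6:2FTS, -0.12 for PFHxS and -0.0037 for PFOS. A list is largest in the compound that chose it, so the medians in the other compound are the ones free of that choice. Their differences were not tested.

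**Figure D4:**
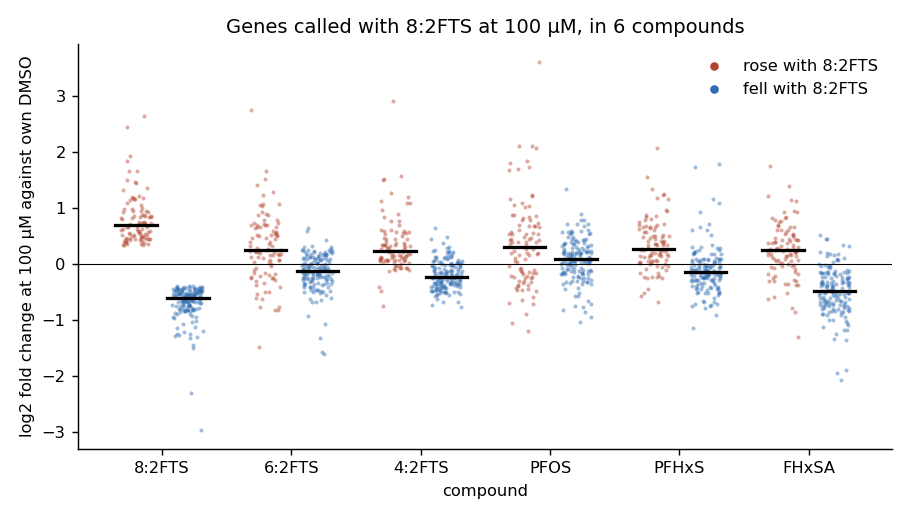
Log2 fold change at 100 µM against each compound's own DMSO (vertical axis, points are genes, bars are medians) for the genes that rose or fell with 8:2FTS at 100 µM, in 8:2FTS and 5 related compounds. The falls have a median of -0.60 with 8:2FTS, -0.48 with FHxSA, -0.12 with 6:2FTS and 0.09 with PFOS.

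The named genes followed the same compounds unevenly. Rsub_07655 changed in edgeR by 1.75 with FHxSA (SE 0.22, adjusted p = 1.34e-08), by 1.70 with PFOS (SE 0.21, adjusted p = 5.36e-08) and by 0.06 with PFHxS, where it was not called (adjusted p = 0.946). Its level was 153 ± 30.1 CPM with PFOS and 47.1 ± 10.7 CPM in that exposure's DMSO, and 24.3 ± 3.5 CPM with PFHxS and 23.0 ± 1.3 CPM in DMSO (SD, n = 3 each). Rsub_02329 rose with PFOS by 1.06 (adjusted p = 4.24e-07), with PFHxS by 0.65 (adjusted p = 0.0344) and with FHxSA by 0.61 (adjusted p = 0.00254). Both genes that fell with 8:2FTS also fell with FHxSA, Rsub_10397 with a change of -1.35 (SE 0.18, adjusted p = 1.97e-08) and Rsub_09629 with a change of -0.99 (SE 0.18, adjusted p = 3.42e-05). With PFOS and PFHxS neither was called, and with PFOS the changes of Rsub_10397 and Rsub_09629 were 0.60 and 0.21.

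A point of departure was derived from curves fitted to the 243 genes that had a trend, DMSO included, and changed at least 1.5-fold at some concentration. The benchmark concentration of a gene is where its curve has left its start by 1 residual SD. It lay below the lowest tested concentration of 0.1 µM for 34 genes, between 0.1 and 1 µM for 50, between 1 and 10 µM for 97 and above 10 µM for 62. Its median was 2.695 µM, 2.93 µM for the 112 rising genes and 2.11 µM for the 131 falling ones. In the treated libraries alone the order was the other way, 5.00 µM for 81 rising and 7.41 µM for 94 falling genes, from a different list of genes. A saturating exponential was the chosen curve for 187 genes. The 10th percentile, taken as the point of departure, was 0.0728 µM, which is an extrapolation below the tested range. The curves' exponents were held to at least 1, a limit set after seeing the data. With exponents down to 0.3 the value was 0.0379 µM, the median 1.51 µM and the median of the falling genes 0.907 µM. Leaving out each replicate number in turn gave 0.0485 to 0.121 µM. Fitted to the treated libraries alone, 175 genes gave 0.695 µM, with 5 genes below 0.1 µM. This shift was larger than any from leaving out a replicate number. That run also used its own trend list and took the 1.5-fold filter against 0.1 µM. Its curves start at no compound, where it held no library, so 0.695 µM rests on extrapolated starts. The shift can therefore not be assigned to the 3 DMSO libraries alone. With the other DMSO libraries kept and DMSO replicate 1 left out, the point of departure was 0.0497 µM.

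**Figure D5:**
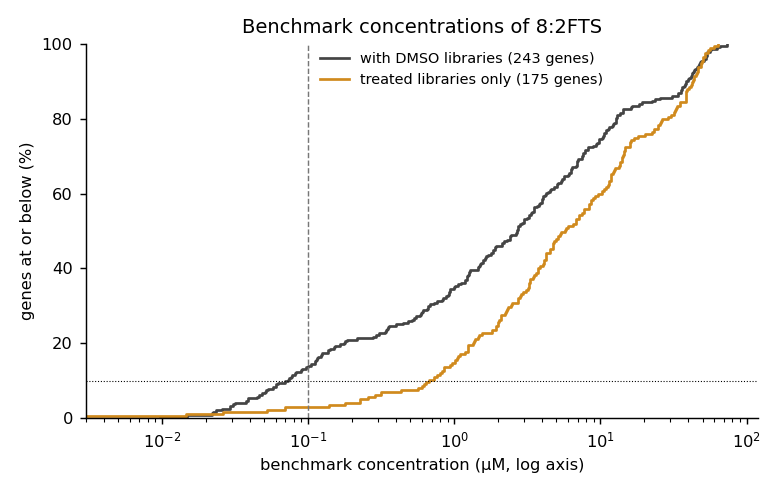
Cumulative share of genes (%) at or below a benchmark concentration in µM on a log axis, from curves with the DMSO libraries (243 genes) and from the treated libraries alone (175 genes), with the dashed line at 0.1 µM and the dotted line at 10%. The curve with DMSO crosses 10% at 0.0728 µM and that of the treated libraries alone at 0.695 µM.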

How the data were processed

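The deposited tables hold whole-number read counts per gene, 13429 genes each, which the authors made from 3' tag reads with molecular identifiers. The submitters' processing notes name featureCounts 2.0.6, fastp 0.23.2, SAMtools 1.15.1 and STAR 2.7.10a. The sources used here state neither the build, nor the annotation, nor whether identifiers were collapsed, which would remove PCR copies. The protocol gives 3.2 µM where the labels give 3. The 24 libraries were fitted together in edgeR 4.0.16 under R 4.3.3 (filterByExpr, TMM, robust glmQLFit, glmQLFTest), with Benjamini-Hochberg adjustment over all genes of a fit. Changes relative to a control are on the TMM scale, whereas CPM uses library totals. Pairs of compounds were fitted jointly. Replicates differed beyond counting noise in each of 24 pairs, with chi-square per degree of freedom of at least 2.03. The DMSO columns were identical in both tables of the exposure.

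Named genes had the largest fold at 100 µM among those called there and in the trend of the treated libraries, in the same direction, without overlap with DMSO in CPM and with at least 10 counts on average in both groups; 54 rises and 76 falls met this. Curves (linear, power, saturating exponential, Hill; exponents of at least 1, chosen after seeing the data) were fitted to log2 CPM with a prior count of 2 in Python with scipy 1.17.1, and kept by AIC. The scripts were tested on simulated data. Alternatives were RLE factors, library totals, no filter, DESeq2 1.42.0, the replicate number as a block, each concentration alone with DMSO, and left-out libraries. The contrasts with PFOS, PFHxS and FHxSA, of 100 with 32 µM, and the trend, benchmark and compound results without DMSO replicate 1 were chosen after seeing the data. No reference gave gene names, so the planned gene lists could not be matched. Compounds, lists and tests were chosen with earlier results of these data known.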

Additional observations from a re-analysis of the deposited data

Results flagged for a closer look

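Differences between compounds were singled out where a test of the difference itself called genes. Between 8:2FTS and PFTDoDA these were 95, 360 and 1603 genes at 10, 32 and 100 µM. For the difference of changes between 8:2FTS and 6:2FTS they were 9, 72 and 84 genes. For 8:2FTS and 4:2FTS they were 4 and 17 genes at 32 and 100 µM.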

How the results depend on the processing

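RLE factors moved no count by over 1.5 times, and library totals moved only 2 of them, 100 against 32 µM to 2 genes and 8:2FTS against 4:2FTS at 32 µM to 1 gene. The share of rises moved by over 10 points with RLE factors for 6:2FTS at 10 µM (46.2% in place of 66.7%) and with library totals for 6:2FTS at 10 µM (41.7%) and at 32 µM (34.9% in place of 47.2%). With library totals the 1 gene left against 4:2FTS was lower with 8:2FTS, and the 2 left for 100 against 32 µM were higher. From 0.1 to 10 µM the counts against DMSO were 13, 68, 58, 109 and 120 without the filter. DESeq2 gave 55, 38 and 95 at 0.3, 1 and 3 µM. With each concentration alone in the fit with DMSO the counts were 1, 29, 97 and 156 at 0.1, 10, 32 and 100 µM, from fewer libraries.

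The protocol speaks of replicate plates, but no label says that a replicate number marks one. Deviations of same-numbered libraries from 8:2FTS and DMSO groups correlated at -0.0085 to 0.15, over the set threshold of 0.1 in 4 of 21 pairs. All of these correlations were positive except the lowest, that of number 2 between DMSO and 1 µM. The main fits carry no block because of the set threshold alone. This threshold cannot exclude a shared effect of the replicate number, and 22 of 24 libraries resembled their own number most. With the replicate block the counts were 36, 133, 104, 187, 207, 496 and 460 from 0.1 to 100 µM, 314 for 100 against 0.1 µM and 34 for 100 against 32 µM. It also called Rsub_02329 at 10 µM (edgeR adjusted p = 0.0374 in place of 0.297) and Rsub_09629 at 3 µM (0.0452 in place of 0.189). It gave 146 against PFTDoDA at 10 µM. It gave 189, 329 and 351 against 6:2FTS, and 29, 56 and 73 against 4:2FTS, at 10, 32 and 100 µM. For 100 against 32 µM and 4:2FTS at 32 µM, no filter gave 11 and 10.

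Counts with a replicate number left out of every group were lowest without number 2 for each concentration against DMSO. Over the numbers they were 0 to 17, 0 to 75, 0 to 50, 0 to 192, 1 to 90, 28 to 219 and 50 to 323 from 0.1 to 100 µM, and where edgeR called 0 genes, 484, 621, 583 and 580 had an unadjusted p under 0.05 at 0.1, 0.3, 1 and 3 µM. They were 30 to 224 for 100 against 0.1 µM, 0 to 3 for 100 against 32 µM, 145 to 467 for the trend (495 without DMSO replicate 1) and 101 to 317 for the trend in treated libraries. Against PFTDoDA they were 28 to 106, 139 to 331 and 779 to 1382 at 10, 32 and 100 µM. Against 6:2FTS they were 0 to 33, 0 to 57 and 13 to 82 (144 at 100 µM without DMSO replicate 1), and against 4:2FTS 0 to 2, 0 to 9 and 1 to 10. Where edgeR called 0 genes in these contrasts, 404 to 1013 had an unadjusted p under 0.05, and DESeq2 was not run on these subsets. The point of departure was 0.0485 to 0.121 µM, with 0.695 µM in the treated libraries, 0.0379 µM with exponents down to 0.3 and 2.695 µM for the median gene as the alternative summary. The causes of these shifts were not tested. Each of the 4 named genes kept its direction at 100 µM under every alternative that gave a value, and DESeq2 gave no adjusted p for the 2 that fell.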
